A study of Mus musculus with 9 samples.

Results

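The members were every gene named Slc25a with a number, the SLC25 family of mitochondrial carriers, together with Vdac1, Vdac2 and Vdac3, the channels of the outer mitochondrial membrane. The platform annotation held 49 such genes, 46 carriers and 3 channels, of 19505 distinct gene symbols, and each was read by 1 probe set. They were followed over 9 mouse arrays of whole tibialis anterior, a fast muscle of the lower leg, with 3 arrays in each of 3 groups. The control was MCU+/+/MCUb+/+, the MCU knockout was MCU-/-/MCUb+/+ and the MCUb knockout was MCU+/+/MCUb-/-, all on a C57/BL6 background at 2 months of age. How the alleles were made, whether they were removed in muscle only, and the sex and litter of the mice are not given in the sources used here. Whether the arrays of 1 group stand for separate animals is not stated in the labels, so the p-values here cover only array-to-array spread, part of which may be technical.

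The inner mitochondrial membrane is closed to most charged solutes, and SLC25 carriers are the proteins that let selected ones cross it. The adenine nucleotide translocators send ATP out in exchange for ADP, the phosphate carrier brings in phosphate, and other members move the acids of the citric acid cycle, amino acids, carnitine esters and cofactors such as coenzyme A. VDAC channels let small solutes and calcium through the outer membrane before MCU, the pore of the calcium uniporter, takes calcium across the inner one, and MCUb is a paralogue of MCU in the same complex. Several carriers have calcium-binding domains that face the space between the membranes, among them the aspartate-glutamate carriers and most ATP-Mg/phosphate carriers.

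Levels are the deposited log2 values, so a difference of 1 is a 2-fold change, and differences were tested with limma over all 22206 probe sets. The background limit of an array was the 95th percentile of its 23 background sets, between 5.87 and 5.92, and a probe set over that limit was above background. Mcu read 10.38, 10.96 and 10.46 in control and 6.80, 6.98 and 7.06 without MCU, where it was still above background. It fell by 3.65 on the log2 scale (SE 0.20, adjusted p = 3.47e-05 in limma). Mcub was not analysed here, and so the second knockout label stands unchecked. All 6 muscle fibre markers were above background, while of 5 measured adipocyte markers only Adipoq was, on 1 array. Control replicate 3 stood apart, at -70.8 on the first principal component against -20.3 to 21.9 for the other 8 arrays, and it enters both comparisons with control.

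No carrier or channel passed the adjusted threshold of 0.05 in any of the 3 comparisons, against 0.14% of all probe sets for MCU knockout against control, 0.0225% for MCUb knockout against control and 0.158% for MCU knockout against MCUb knockout. The smallest adjusted p among the members was 0.266, 0.562 and 0.631 in that order (limma, Benjamini-Hochberg over all probe sets). The median SE was 0.25 over the 35 members above background on at least 1 array. At that SE, a log2 difference had to reach 1.53, 1.86 and 1.49 to pass. Of the 28 members above background on every array, none differed by more than 1 on the log2 scale: the differences ran from -0.97 to 0.81 without MCU, from -0.62 to 0.57 without MCUb and from -0.95 to 0.57 between the knockouts. Many of the differences below are therefore given with an interval or an adjusted p, and none is a called change.

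The arrays separated the members into those with signal in this muscle and those without. Of the 49, 28 were above background on all 9 arrays, 7 on some arrays and 14 on none, so 35 (71.4%) had signal on at least 1 array against 53.2% of all probe sets. In several role groups part of the paralogues had signal. The adenine nucleotide translocators Slc25a4 and Slc25a5 were above background on all arrays, and Slc25a31, known for its role in the male germ line, was on none. Among the ATP-Mg/phosphate carriers, which adjust the adenine nucleotide pool of the matrix, Slc25a23 and Slc25a25 had signal throughout and Slc25a24 and Slc25a41 nowhere. For the aspartate-glutamate carriers of the malate-aspartate shuttle the same held for Slc25a12 and Slc25a13, the second at 3.72 to 4.30. The glutamate carrier Slc25a22 was above background on 6 of 9 arrays, 2 in each group, and its paralogue Slc25a18 on none. Of the pyrimidine nucleotide carriers Slc25a36 had signal on all arrays and Slc25a33 on none. Probe sets differ in how strongly they respond, so these are statements on each probe set against background and not on one gene's level against another's.

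**Figure D1:**
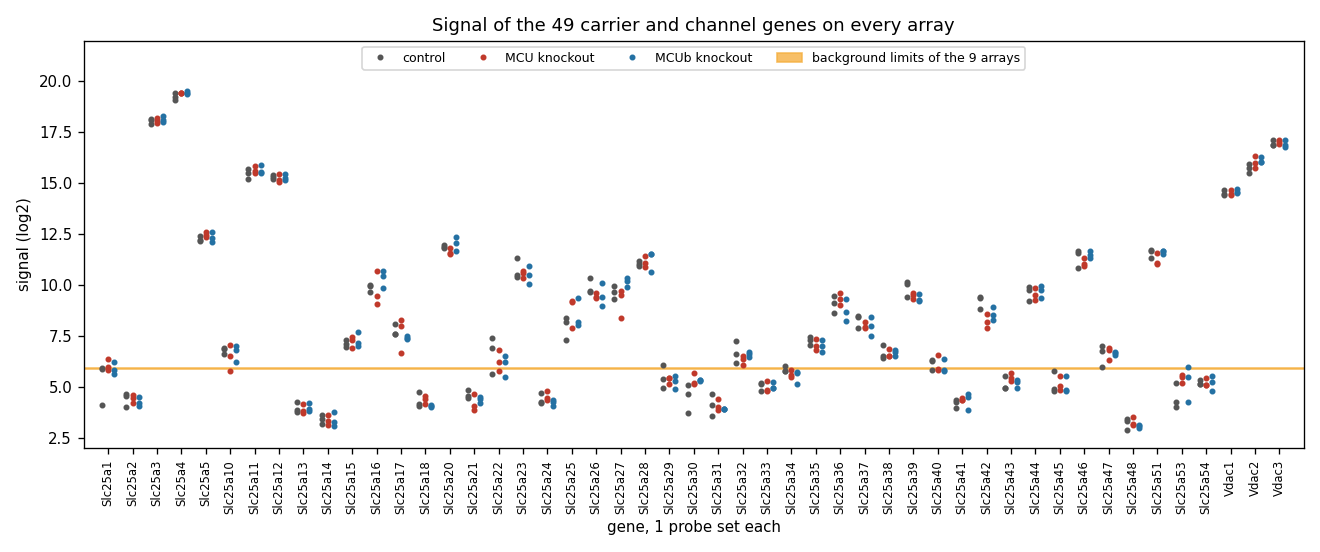
The log2 level (vertical axis) of all 49 carriers and channels (horizontal axis) on the 9 arrays, coloured by genotype, with the orange band marking the background limits of the arrays. The 3 genotypes overlap for most genes, and 14 genes lie below the band on every array.

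The carrier with the smallest p in the MCU comparison was Slc25a42, which brings coenzyme A into the matrix. Its promoter is shown because it gave this smallest p, with those of the adenine nucleotide translocators Slc25a4 and Slc25a5 for comparison. Each run is the 250 bases before the annotated start of the gene in RefSeq on GRCm38.p6, 5′ to 3′ on the gene's strand. Capitals mark matches on either strand to CCAAT, the letters that the factor NF-Y reads, and to the GC box GGGCGG, the letters that Sp factors read. They lie at chr8:70212282-70212531 on the minus strand, chr8:46211063-46211312 on the minus strand and chrX:36795347-36795596 on the plus strand.
Slc25a42: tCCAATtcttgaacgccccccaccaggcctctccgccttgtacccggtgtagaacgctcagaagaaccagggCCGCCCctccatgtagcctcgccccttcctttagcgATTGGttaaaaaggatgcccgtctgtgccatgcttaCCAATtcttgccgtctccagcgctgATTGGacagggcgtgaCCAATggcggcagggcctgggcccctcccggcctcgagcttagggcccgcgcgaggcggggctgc
Slc25a4: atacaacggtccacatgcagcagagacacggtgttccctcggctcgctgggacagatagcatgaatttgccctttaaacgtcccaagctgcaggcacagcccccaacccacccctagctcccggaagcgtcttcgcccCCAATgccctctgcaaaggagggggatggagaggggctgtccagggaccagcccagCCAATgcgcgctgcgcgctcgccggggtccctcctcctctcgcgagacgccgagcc
Slc25a5: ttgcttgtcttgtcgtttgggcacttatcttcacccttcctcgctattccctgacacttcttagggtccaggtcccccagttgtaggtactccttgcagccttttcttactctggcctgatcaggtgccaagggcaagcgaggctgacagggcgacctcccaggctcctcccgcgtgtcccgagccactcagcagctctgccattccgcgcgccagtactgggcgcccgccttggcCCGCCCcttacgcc
The Slc25a42 promoter held 5 CCAAT matches and 1 GC box, that of Slc25a4 held 2 and 0, and that of Slc25a5 held 0 and 1. Their GC content was 63.6%, 64.8% and 61.6%. Among 17492 protein-coding genes, 54 (0.309%) held 5 or more CCAAT matches in this window, and Slc25a42 was the 1 member among them, a count made after its sequence was seen.

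Promoter entries were found for 37 of the 49 members. Their median GC content was 58.8% (range 41.6% to 78.0%) against 55.2% over the coding genes. The GC box was present in 26 of them (70.3%) against 45.8% of the coding genes, CCAAT in 18 (48.6%) against 39.5%, and the E-box CACGTG in 7 (18.9%) against 7.61%. The other motifs were rare in the members. The core NRF1 letters GCGCATGC, those of a factor that acts on many genes for mitochondrial proteins, stood in 2 (5.41%) against 3.32%. The CRE TGACGTCA stood in 2 (5.41%) against 2.2%, and the ERR letters TCAAGGTCA in 0 against 0.36%. All motifs were searched on both strands, and GC content was not matched between the members and the other genes. A match is a description of these letters and not evidence of binding, and no match speaks only of this window.

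In muscle without MCU, 3 members had an unadjusted p under 0.05 (6.12% of 49). The higher ones were Slc25a30 and Slc25a53, where 4.76% of all probe sets were higher by this rule, and the lower one was Slc25a42, where 5.35% of all probe sets were lower. Without control replicate 2 the count was 7 of 49, and the share of all probe sets by this rule, in both directions together, was then 16.6%. The groups did not overlap for 4 members (8.16%) against 13.4% of all probe sets: Slc25a30 and Slc25a4 were higher on every MCU knockout array and Slc25a26 and Slc25a42 lower. These shares lie near or under the background. Over the 35 members with signal the median difference was -0.08, with 13 above zero and 22 below, and the median over all 11817 probe sets with signal was -0.01. The sign of the members' median was not stable, since it was 0.0063 without MCU knockout replicate 2.

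Slc25a42 read 8.85, 9.41 and 9.36 on the control arrays, 8.60, 7.92 and 8.21 on the MCU knockout arrays and 8.91, 8.56 and 8.30 on the MCUb knockout arrays. All MCU knockout arrays lay below all controls, while the MCUb knockout arrays overlapped with both. The mean was 9.21 ± 0.31 (SD, n = 3) in control and 8.24 ± 0.34 without MCU, a log2 difference of -0.97 (SE 0.25, 95% interval -1.51 to -0.427) or 1.95-fold lower, with an unadjusted p of 0.0023 and a limma adjusted p of 0.266. Over the arrays, an exact two-sided permutation test gave p = 0.1, the smallest that 3 against 3 can give. Without MCUb the mean was 8.59 ± 0.30, a log2 difference of -0.62 (interval -1.16 to -0.0771, adjusted p = 0.57 in limma). The comparisons share the control arrays, and between the knockouts the difference was -0.35 (adjusted p = 1 in limma). In bulk muscle, fewer cells of a type and less RNA per cell cannot be told apart.

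Markers of fibre and cell types differed in the same comparisons, and none passed the threshold. All 9 slow and IIa fibre markers were above background, and their mean level was 10.18 to 10.35 on the control arrays, 9.30 to 10.12 without MCU and 9.41 to 10.58 without MCUb. Without MCU, 3 of them were lower and 2 higher at an unadjusted p under 0.05, the lower ones being Casq2 at -2.32 (adjusted p = 0.204 in limma), Myh2 at -2.09 (adjusted p = 0.349) and Myl2 at -2.0 (adjusted p = 0.361). The higher ones were Tnnt1 at 0.60 (adjusted p = 0.48) and Atp2a2 at 0.59 (adjusted p = 0.436). Myh2 and Casq2 were also low on MCUb knockout replicate 1, at 14.27 and 9.89. Of the 9, 5 lay above zero and 4 below without MCU. Of the 8 fast fibre markers, 7 lay above zero and 1 below, none with such a p. Of 3 fibroblast and 4 macrophage and neutrophil markers measured, all with signal on at least 1 array, 1 and 2 were higher by that rule and none lower. These were Dcn at 0.56 (adjusted p = 0.468), Csf1r at 0.80 (adjusted p = 0.486) and Adgre1, which was above background on 2 arrays. The other 2 macrophage and neutrophil markers lay below zero. They were S100a8 at -2.08 (adjusted p = 0.558) and S100a9 at -1.12 (adjusted p = 0.731), above background on 2 and 3 arrays. The fibroblast markers averaged 10.45 to 11.03 in control, 10.44 to 11.97 without MCU and 10.76 to 11.03 without MCUb, and the macrophage and neutrophil markers 5.34 to 6.85, 5.37 to 5.86 and 5.38 to 7.38. All 4 endothelial markers were above background, and none had an unadjusted p under 0.05 without MCU. Without MCUb, 1 of them was lower by that rule, Kdr at -1.09 (adjusted p = 0.555 in limma). It differed by 0.96 between the knockouts (adjusted p = 0.802). No slow, IIa or fast fibre marker had such a p without MCUb. Of the 9 slow and IIa fibre markers, 2 then lay above zero and 7 below. The part of fibre or cell types in the Slc25a42 values was not tested.

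For the other coenzyme A and related nucleotide carriers the MCU knockout and control arrays overlapped. Slc25a16 read 9.69, 10.02 and 9.98 in control, 9.10, 10.68 and 9.48 without MCU and 10.71, 10.45 and 9.87 without MCUb. The MCU knockout arrays spread from 9.10 to 10.68, and the difference between the knockouts was -0.59 (adjusted p = 0.989 in limma). Leaving out MCU knockout replicate 1 gave -0.26, and leaving out replicate 2 of that group gave -1.05. Slc25a17, the peroxisomal member of the group, read 7.60, 7.62 and 8.11 in control, 8.31, 6.65 and 8.01 without MCU and 7.39, 7.51 and 7.38 without MCUb.

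Slc25a25, a calcium-binding ATP-Mg/phosphate carrier, read 8.19, 8.40 and 7.31 on the control arrays, 9.20, 7.89 and 9.24 without MCU and 8.07, 8.18 and 9.37 without MCUb. High values above 9 were found on 3 knockout arrays and on no control, yet the groups overlapped. The differences were 0.81 (SE 0.45, interval -0.167 to 1.79, adjusted p = 0.564 in limma) and 0.57 (adjusted p = 0.745). Without control replicate 3, the lowest array, they were 0.48 and 0.24. The first was 1.25 without MCU knockout replicate 2, and also with the Y-linked covariate. The other member of this group with signal, Slc25a23, lay between 10.04 and 11.36 over the 9 arrays, with differences of -0.19 and -0.25.

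**Figure D2:**
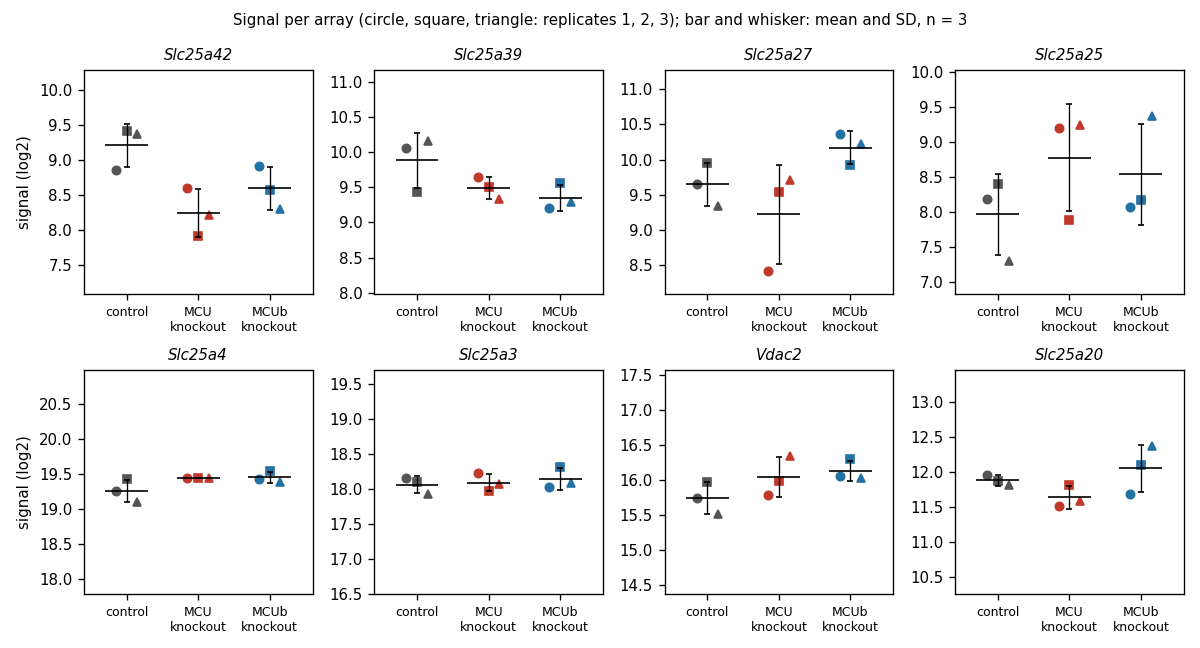
Log2 level of 8 carriers and channels on each array of the 3 genotypes, with the group mean and SD; each panel spans the same number of log2 units. The MCU knockout arrays of Slc25a42 sit below its controls, and the Slc25a3 and Slc25a4 panels are nearly flat.

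Slc25a4, the adenine nucleotide translocator of heart and skeletal muscle, read 19.25, 19.43 and 19.10 in control, 19.44, 19.45 and 19.44 without MCU and 19.43, 19.54 and 19.39 without MCUb. These values were close to the highest of any probe set on the same array, which was 19.73, 19.92 and 19.45 on the controls and 19.90 to 19.93 on the knockout arrays. Whether the arrays have an upper limit that bears on the Slc25a4 values was not tested. All MCU knockout arrays lay above all controls, by a log2 difference of 0.19 (interval -0.178 to 0.549, adjusted p = 0.727 in limma), and without control replicate 3 it was 0.11. Slc25a5, the widely expressed translocator, read 12.22, 12.41 and 12.15 in control, 12.45, 12.39 and 12.60 without MCU and 12.30, 12.60 and 12.10 without MCUb. The groups overlapped, with differences of 0.22 (interval -0.185 to 0.632) and 0.08 (interval -0.333 to 0.484).

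Slc25a3, the carrier that supplies phosphate to ATP synthase, read 18.16, 18.10 and 17.92 in control, 18.22, 17.97 and 18.06 without MCU and 18.02, 18.31 and 18.09 without MCUb. The 3 groups overlapped. Its differences from control were 0.03 (interval -0.355 to 0.406, adjusted p = 0.974 in limma) and 0.08 (interval -0.299 to 0.462, adjusted p = 0.92).

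The outer membrane channels gave intervals of similar width. Vdac1 read 14.42, 14.48 and 14.68 in control, 14.65, 14.46 and 14.41 without MCU and 14.72, 14.51 and 14.56 without MCUb. Its differences were -0.02 (interval -0.392 to 0.357) and 0.07 (interval -0.304 to 0.445). Vdac3 read 16.87, 17.14 and 16.86 in control, 16.92, 17.04 and 17.12 without MCU and 16.77, 17.12 and 16.90 without MCUb. In both genes the 3 groups overlapped, and for Vdac3 the differences were 0.07 (interval -0.32 to 0.463) and -0.03 (interval -0.421 to 0.362). Vdac2, the channel known to hold the cell death protein BAK at the outer membrane, read 15.74, 15.96 and 15.51 in control, 15.77, 15.98 and 16.34 without MCU and 16.06, 16.29 and 16.02 without MCUb. Every MCUb knockout array lay above every control. The mean went from 15.74 ± 0.23 to 16.12 ± 0.14 (SD, n = 3), a log2 difference of 0.39 (interval -0.0642 to 0.839, adjusted p = 0.638 in limma), and was 0.27 without control replicate 3. Without MCU it was 0.30 (interval -0.155 to 0.748, adjusted p = 0.65).

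Muscle without MCUb had 3 members with an unadjusted p under 0.05 (6.12% of 49). Slc25a30 was higher, where 3.9% of all probe sets were, and Slc25a42 and Slc25a39 were lower, where 4.21% of all probe sets were. The count was 1 without control replicate 3, where 6.26% of all probe sets had such a p. The groups did not overlap for 4 members (8.16%) against 12.8% of all probe sets, with Slc25a30 and Vdac2 higher and Slc25a17 and Slc25a34 lower. The median over the 35 members with signal was 0.05, with 20 above zero and 15 below, against 0.0013 over all probe sets with signal, and it was -0.06 without control replicate 2.

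Slc25a39, which carries glutathione into mitochondria, read 10.06, 9.44 and 10.16 in control, 9.64, 9.50 and 9.33 without MCU and 9.21, 9.56 and 9.29 without MCUb. Control replicate 2 lay within the knockout range and the other controls above it. The mean was 9.89 ± 0.39 in control, 9.49 ± 0.16 without MCU and 9.35 ± 0.18 without MCUb (SD, n = 3). The differences were -0.39 (SE 0.22, adjusted p = 0.576 in limma) and -0.54 (interval -1.02 to -0.0485, unadjusted p 0.034, adjusted p = 0.578), and without control replicate 3 they were -0.26 and -0.40. Without control replicate 2 the first was -0.62. Its paralogue Slc25a40 was above background on 4 of 9 arrays.

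Slc25a30, an uncoupling-protein-like carrier, had low p in both comparisons but was not above background on any array. It read 4.66, 5.12 and 3.76 in control, 5.19, 5.15 and 5.67 without MCU and 5.35, 5.30 and 5.36 without MCUb. All knockout arrays lay above all controls and below the background limit, so no fold is given (adjusted p = 0.414 and 0.562 in limma). Slc25a53, a carrier without a known substrate, read 4.02, 4.26 and 5.23 in control, 5.61, 5.21 and 5.49 without MCU and 4.29, 5.48 and 5.98 without MCUb. Only the last of these arrays was above background, and the adjusted p for the MCUb comparison was 0.646 in limma. Slc25a34, likewise without a known substrate, read 5.81, 6.05 and 5.78 in control, 5.84, 5.61 and 5.50 without MCU and 5.18, 5.76 and 5.71 without MCUb. It was above background on 1 control array only, so no fold is given (adjusted p = 0.685 for MCUb knockout against control in limma).

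**Figure D3:**
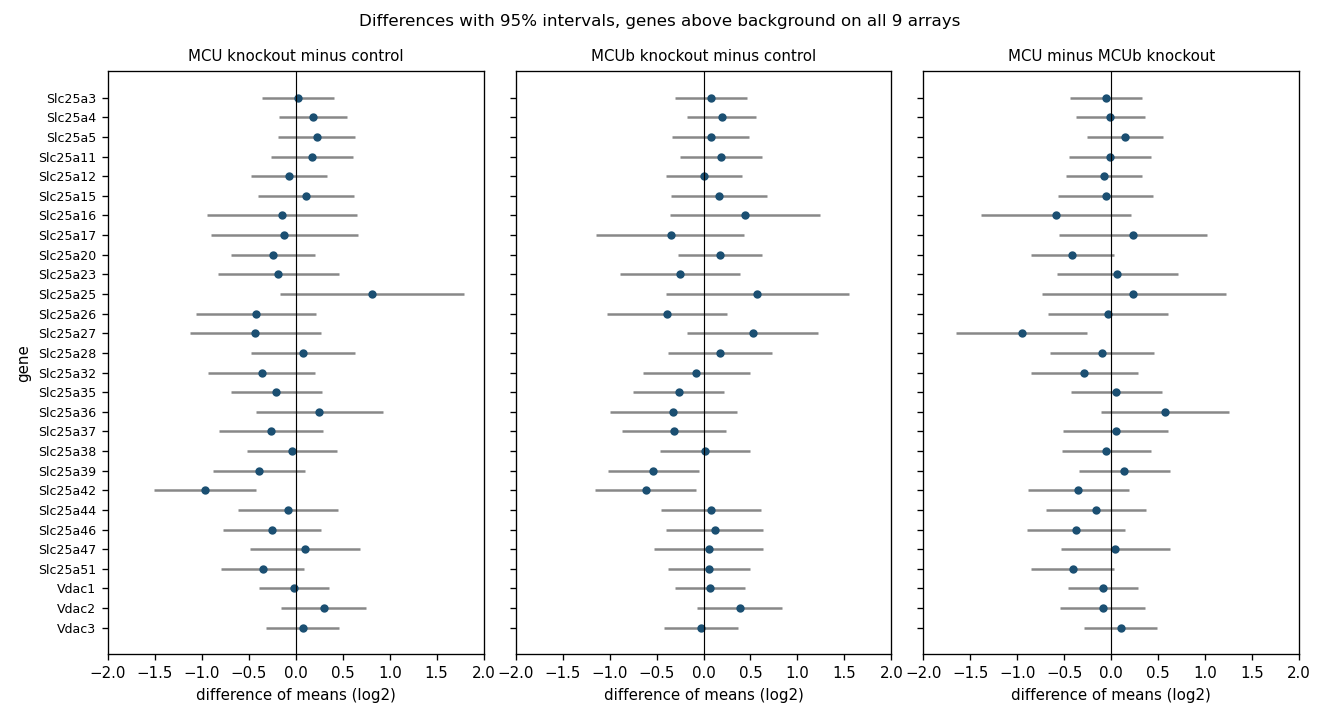
Log2 difference with its 95% interval (horizontal axis) for the 28 members above background on all 9 arrays, in panels for MCU knockout minus control, MCUb knockout minus control and MCU knockout minus MCUb knockout. Most intervals span zero, and the exceptions are Slc25a42 against control in both knockouts, Slc25a39 without MCUb and Slc25a27 between the knockouts. The intervals are unadjusted. Of all probe sets, 10.1%, 8.11% and 5.7% had an unadjusted p under 0.05 in these comparisons.

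Between the knockouts 1 member had an unadjusted p under 0.05 (2.04% of 49). This was Slc25a27, lower without MCU than without MCUb, where 3.02% of all probe sets were lower and 2.68% higher. The count was 3 without MCU knockout replicate 2 (5.15% of all probe sets, both directions) or without MCUb knockout replicate 1 (5.19%), and 2 without MCU knockout replicate 3 (4.77%). The groups did not overlap for 3 members (6.12%) against 12.8% of all probe sets. Apart from Slc25a27 these were Slc25a18 and Slc25a48, higher without MCU and not above background on any array. The median over the 35 members with signal was -0.01, as it was over all probe sets with signal.

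Slc25a27, an uncoupling-protein-like carrier best known from brain, read 9.65, 9.95 and 9.34 in control, 8.41, 9.53 and 9.71 without MCU and 10.37, 9.92 and 10.22 without MCUb. The control mean of 9.65 lay between those of the knockouts, and the controls overlapped with both, at -0.43 and 0.52 from control (adjusted p = 0.674 in limma for each). The means were 9.22 ± 0.70 without MCU and 10.17 ± 0.23 without MCUb (SD, n = 3), a log2 difference of -0.95 (SE 0.32, interval -1.65 to -0.254, unadjusted p 0.012, adjusted p = 0.631 in limma). MCU knockout replicate 1 was the lowest array, and without it the difference was -0.55 (adjusted p = 0.811, and 0.352 to 0.999 over all alternatives).

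Slc25a20, which exchanges acylcarnitines for carnitine and so admits fatty acids to oxidation, read 11.95, 11.87 and 11.81 in control, 11.51, 11.82 and 11.58 without MCU and 11.69, 12.10 and 12.37 without MCUb. The knockout means lay on opposite sides of the control mean, and the arrays of the 2 knockouts overlapped with each other. The differences were -0.24 (adjusted p = 0.711 in limma) without MCU and 0.17 (adjusted p = 0.831) without MCUb, and -0.41 (interval -0.859 to 0.0336, adjusted p = 0.907) between the knockouts, which was -0.25 without MCUb knockout replicate 3. Slc25a51, the NAD carrier, read 11.66, 11.33 and 11.71 in control, 11.03, 11.07 and 11.56 without MCU and 11.69, 11.67 and 11.53 without MCUb. On 2 of the MCU knockout arrays it lay below all other arrays, with a difference of -0.35 from control (adjusted p = 0.579) and of -0.41 from the MCUb knockout (adjusted p = 0.903).

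Among the other cofactor and nucleotide carriers, Slc25a26, which brings S-adenosylmethionine into the matrix, read 9.71, 9.64 and 10.36 in control, 9.62, 9.44 and 9.37 without MCU and 8.98, 9.44 and 10.12 without MCUb. All MCU knockout arrays lay below all controls, the highest at 9.62 against a lowest control of 9.64, with a difference of -0.43 (adjusted p = 0.642 in limma). It was -0.20 without control replicate 3, the highest array, and -0.16 with the Y-linked covariate. The pyrimidine nucleotide carrier Slc25a36 read 9.47, 8.62 and 9.11 in control, 9.61, 9.33 and 9.01 without MCU and 9.35, 8.66 and 8.22 without MCUb. Its groups overlapped, and between the knockouts the difference was 0.57 (adjusted p = 0.943). It was 0.31 without MCUb knockout replicate 3 and 0.87 without MCUb knockout replicate 1.

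The carriers of the malate-aspartate shuttle, which passes the electrons of cytosolic NADH to the matrix, showed no called difference. Slc25a12, the calcium-regulated aspartate-glutamate carrier, read 15.30, 15.39 and 15.20 in control, 15.48, 15.05 and 15.15 without MCU and 15.17, 15.47 and 15.25 without MCUb. The groups overlapped, at -0.07 (interval -0.475 to 0.331, adjusted p = 0.919 in limma) without MCU and 0.00 (adjusted p = 0.998) without MCUb. Slc25a11, the 2-oxoglutarate/malate carrier, read 15.70, 15.51 and 15.21 in control, 15.83, 15.61 and 15.52 without MCU and 15.51, 15.92 and 15.56 without MCUb. Control replicate 3 was the lowest array, and the differences were 0.18 (adjusted p = 0.788) and 0.19 (adjusted p = 0.811). Without that array they were 0.045 and 0.06. The citrate carrier Slc25a1 read 5.93, 5.91 and 4.13 in control, 5.86, 6.38 and 6.0 without MCU and 6.25, 5.82 and 5.66 without MCUb, around the background limit. The difference of 0.76 without MCU (adjusted p = 0.564 in limma) was 0.16 without control replicate 3.

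For the other amino acid and acid carriers with signal described next, all intervals spanned zero. Slc25a44, which brings branched-chain amino acids to their breakdown in the matrix, lay between 9.23 and 9.98 over the 9 arrays, with differences of -0.08 and 0.08 from control. Slc25a15, the ornithine carrier, lay between 6.91 and 7.72 and Slc25a38, the glycine carrier needed for haem synthesis, between 6.42 and 7.08. No group stood apart for these genes. The dicarboxylate carrier Slc25a10 was above background on 8 of 9 arrays, all but MCU knockout replicate 3 at 5.79, and its differences were -0.37 (adjusted p = 0.712 in limma) and -0.12 (adjusted p = 0.937). Slc25a32, which carries folate and FAD, lay between 6.07 and 7.26, with its highest value on control replicate 3 and differences of -0.36 (adjusted p = 0.664) and -0.08 (adjusted p = 0.953). Without that array they were -0.07 and 0.21, the second with the opposite sign.

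Of the iron importers, mitoferrin 1 (Slc25a37) read 8.46, 8.50 and 7.91 in control, 8.20, 7.90 and 7.97 without MCU and 8.42, 7.98 and 7.51 without MCUb. Its differences were -0.26 (adjusted p = 0.745 in limma) and -0.31 (adjusted p = 0.753), and -0.46 and -0.51 without control replicate 3. Mitoferrin 1 is high in red cell precursors, and Alas2, the erythroid enzyme of haem synthesis, read 8.76, 8.33 and 8.14 in control, 7.57, 7.62 and 7.72 without MCU and 7.74, 7.54 and 8.18 without MCUb. Its differences were -0.77 (adjusted p = 0.332) and -0.59 (adjusted p = 0.562). Slc4a1, the anion exchanger of red cells and the only other measured gene of 6 erythroid markers listed, lay on the other side of zero, at 0.26 (adjusted p = 0.797) and 0.19 (adjusted p = 0.886). The mean level of both ran from 7.22 to 8.21 in control, 7.29 to 7.55 without MCU and 7.24 to 7.65 without MCUb. The part of blood cell RNA in the Slc25a37 values was not tested. Slc25a28, mitoferrin 2, lay between 10.64 and 11.54 with differences of 0.08 and 0.17. Slc25a46, an outer membrane member with a role in mitochondrial shape, read 11.69, 10.86 and 11.59 in control, 11.06, 11.34 and 10.97 without MCU and 11.50, 11.33 and 11.66 without MCUb, with -0.38 between the knockouts (adjusted p = 0.995 in limma).

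Control replicate 3 moved with the values of some members. For 4 of the 7 members whose probe sets averaged above 14 (Slc25a3, Slc25a4, Slc25a11, Slc25a12, Vdac1, Vdac2 and Vdac3), it was the lowest of the 9 arrays, and it was so for 27.2% of the 694 probe sets of that brightness. The median difference of these 7 went from 0.07 to 0.05 without MCU, and from 0.08 to 0.06 without MCUb, when that array was left out. Over all 49 members the number above zero in the MCU comparison went from 20 to 26. The Y-linked genes Uty and Kdm5d averaged 7.80 on MCUb knockout replicate 1 and 7.56 and 7.24 on MCU knockout replicates 2 and 3. On the other arrays they averaged 3.01 to 3.89. Eif2s3y, also Y-linked and measured, was above background on no array. It read 3.09 on MCUb knockout replicate 1, 3.75 and 3.01 on MCU knockout replicates 2 and 3, and 2.75 to 3.04 elsewhere. The split of the arrays therefore rests on Uty and Kdm5d. For 4 members the 3 arrays high in Uty and Kdm5d did not overlap with the remaining 6 (8.16%), against 3.57% of all probe sets. On these arrays Slc25a1 was higher, and Slc25a12, Slc25a34 and Slc25a35 were lower. A fit with the mean of Uty and Kdm5d as Y-linked covariate was also made. In it, the median over the members with signal in the MCU comparison was 0.05 in place of -0.08.

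Genes that work with the carriers and channels were read from lists of relatives, other inner membrane transporters, import components and binding partners. None of the 4 measured relatives, 12 transporters, 16 import components or 10 partners passed in any comparison. At an unadjusted p under 0.05, 5 of these 42 genes were higher and 2 lower without MCU, 2 were higher and 3 lower without MCUb, and 2 were higher and 2 lower in the MCU knockout than in the MCUb knockout. Over all probe sets the shares by this rule were 4.76% higher and 5.35% lower, 3.9% and 4.21%, and 2.68% and 3.02% in that order. Ucp3, the muscle uncoupling protein of the same superfamily, read 10.80, 11.23 and 11.79 in control, 12.77, 11.39 and 12.22 without MCU and 10.34, 10.70 and 9.58 without MCUb. The knockouts did not overlap, at a log2 difference of 1.92 (adjusted p = 0.135 in limma), while the differences from control were 0.85 (adjusted p = 0.494) and -1.07 (adjusted p = 0.556).

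Bcl2l1, which encodes the survival protein BCL-XL that binds VDAC, read 6.42, 6.75 and 6.08 in control, 7.57, 7.56 and 7.75 without MCU and 7.35, 7.61 and 7.21 without MCUb. All knockout arrays lay above all controls, with differences of 1.22 (adjusted p = 0.0678 in limma) and 0.98 (adjusted p = 0.385). Mpc1, a subunit of the mitochondrial pyruvate carrier, differed by 0.56 without MCU (adjusted p = 0.341), and by 0.45 between the knockouts (adjusted p = 0.723). Tomm70a, the outer membrane receptor that takes up newly made carriers, differed by 0.74 (adjusted p = 0.345) and 0.70 (adjusted p = 0.534). Agk, a subunit of the TIM22 complex that inserts them in the inner membrane, differed by -0.52 (adjusted p = 0.422) and -0.62 (adjusted p = 0.534), and Timm10b, of the same complex, by -0.59 (adjusted p = 0.418) without MCU. Sfxn5, a sideroflexin, differed by -1.27 without MCUb (adjusted p = 0.534). None of these passed the threshold.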

How the data were processed

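The authors deposited 1 log2 value per probe set for each of 9 Clariom S arrays, which came from Affymetrix Expression Console (submitters' processing notes). Trizol RNA was labelled with a 3′ IVT Pico kit, per the labels' protocols. The program version, normalization and logarithm base are not given in the sources used here, and values were read as log2. Of 28846 values per array, 6640 control features were left out, and 19572 of the 22206 probe sets carried 1 symbol. Groups were compared in 1 limma 3.58.1 fit (R 4.3.3, lmFit and eBayes, two-sided) over all arrays (6 residual and 5.06 prior degrees of freedom), adjusted by Benjamini-Hochberg over all probe sets. The fit was tested on simulated data. The members and lists were chosen with earlier results of these data known. Named with every array's value are, per comparison, the 6 members of smallest p with signal in either group, and 10 members chosen by role (Slc25a13, never above background, by its range). Slc25a10, Slc25a15, Slc25a17, Slc25a23, Slc25a28, Slc25a30, Slc25a32, Slc25a37, Slc25a38 and Slc25a44, those named only in counts, and the fibre and cell type markers were named after their values were seen. Related genes were named up to 2 per list and comparison. The number of arrays limits the precision. Whether replicate numbers pair the samples is not stated in the labels. Alternatives were a background filter, quantile normalization, median centring, a robust prior with an intensity trend, array weights, the compared groups alone, a replicate block, a Y-linked covariate and leaving out each array. Taking all members into the median was added after seeing the data.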

Additional observations from a re-analysis of the deposited data

How the results depend on the processing

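No member passed the adjusted threshold under any alternative, with a smallest adjusted p of 0.113 in limma. The count of members at an unadjusted p under 0.05 without MCU was 3, and 1 with the background filter, which tests fewer members. The share of all probe sets tested was 10.1% and 12.7% in that order. Leaving out 1 array gave 2 to 7 members, with 7 of 49 without control replicate 2, where 16.6% of all probe sets had such a p. Without MCUb the count was 3, and 1 to 4 with an array left out, the lowest without control replicate 3. The share of all probe sets was 8.11%, and 6.26% to 15% with an array left out. Between the knockouts the count was 1, and 2 with median centring, with the replicate block and with the Y-linked covariate. The share of all probe sets was 5.7%, and 5.71%, 5.44% and 5.45% in these settings. Leaving out 1 array gave 1 to 3 members, with 3 without MCU knockout replicate 2 or without MCUb knockout replicate 1, and 2 without MCU knockout replicate 3. The share of all probe sets was then 4.67% to 7.1%. The median difference over the members with signal without MCU was -0.08 and became 0.0478 with the Y-linked covariate; without MCUb it was 0.05, and -0.0019 with quantile normalization. The cause of these shifts was not tested. Whether replicate numbers pair the samples is not stated in the labels. Same-numbered arrays deviated with correlations of -0.121 to 0.0882, which cannot decide this with 3 arrays per group. With the replicate block 3 and 2 members had an unadjusted p under 0.05 in the comparisons with control. By this rule 9.73% and 8.01% of all probe sets did. For Slc25a42 without MCU, the difference kept its sign under every alternative, with adjusted p of 0.172 to 0.57. Another probe set per gene could not be tried, since each member has 1. The number of arrays limits the precision.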
